A study of Caenorhabditis elegans with 2 samples.

Results

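The nematode-specific peptide genes examined here are the protein-coding genes of Caenorhabditis elegans whose symbols start with nspa-, nspb-, nspc-, nspd- or nspe-, called groups A to E. They were taken by symbol from the Ensembl annotation, which gave 58 of 19973 protein-coding genes on the nuclear chromosomes. The 58 genes carried 54 distinct symbols, because nspa-1, nspa-5, nspa-7 and nspc-2 were each the symbol of a pair of genes. Group A had 10 genes, B 12, C 18, D 10 and E 8. For each gene the strongest peak of CEH-79, a homeobox transcription factor, was sought in a promoter window that began 1000 bp upstream and ended 200 bp downstream of the annotated start. Membership followed the symbols, but the family and nspc-17 were selected on the deposited signals in these windows, so those signals are given as a description.

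The peaks came from ChIP-seq on 2 biological replicates of the strain OP553 (unc-119(tm4063) III; wgIs553). Both replicates shared every allele: the unc-119 mutation and an integrated transgene for CEH-79 with a GFP-FLAG tag at its C terminus. Whole worms of mixed sex were taken as young adults, 66 hours after synchronization as starved first-stage larvae, and an anti-GFP antibody was used for the precipitation. There was 1 group and 1 transgenic line, so no condition could be compared. Whole worms do not resolve the tissue in which a site was bound, and which promoter drove the tagged protein was not given in the sources used here. No expression values were analysed, and the labelled whole worm has no defining marker to check in a binding assay.

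Each of these families consists of short proteins encoded by small, similar genes, several of which lie side by side in the genome. The nspd genes of C. elegans encode small proteins expressed in sperm. A homeobox protein binds DNA through its homeodomain, and a ChIP-seq peak marks where the precipitated DNA was in excess, whether the protein touched the DNA itself or was held there by other proteins.

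Peaks were deposited as a pooled list of 30000 candidates, an optimal list of 566 and 1 list for each replicate (30000 and 29624). The pooled and replicate lists hold background as well as peaks, so a candidate near the end of a list is a weak one. Signal, the authors' own value for a peak, ran from 23.2 to 409 in the pooled list with a median of 32.6, from 15.1 to 201 in replicate 1 and from 12.7 to 209 in replicate 2. The optimal peaks, those the authors kept after the irreproducible discovery rate, had a pooled signal of at least 86.5. Ranks below count from 1 at the highest signal within a list. The lists hold no read counts, so sequencing depth is unknown.

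The clearest member was nspc-17 on the X chromosome, whose peak is shown first because no other of the 58 promoter windows held an optimal peak. The gene lies at chrX:14524754-14525181 on the minus strand (build ce11). Its peak at chrX:14525677-14526100 had its summit in intergenic sequence 708 bp upstream of the start. The window of 101 bp around the summit, chrX:14525839-14525939 on the plus strand of the RefSeq assembly of the same build, are printed with capitals on an inverted repeat.
nspc-17 summit window: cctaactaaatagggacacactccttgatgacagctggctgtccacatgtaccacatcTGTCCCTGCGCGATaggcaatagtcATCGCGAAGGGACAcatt
The arms of the inverted repeat were 14 bp long with 11 bp between them. Read 5′ to 3′, the left arm and the reverse complement of the right arm differed at 1 position, G8T, with the base of the left arm first and positions counted from 1 at its 5′ end.
left arm: TGTCCCTGCGCGAT
right arm, reverse complement: TGTCCCTTCGCGAT
Arms at least as long with at most 1 mismatch and a loop of 3 to 40 bp were found in 4 of 566 optimal summit windows (0.707%) and in 274 of 30000 pooled ones (0.913%). The inverted repeat was looked for after the peak had been seen, and its presence is a description.

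The nspc-17 peak stood far above the other candidates of these genes and repeated at almost the same place in both replicates. Its pooled signal was 206 and its pooled rank 19. In replicate 1 the signal was 120.4 at rank 16, and in replicate 2 it was 94.4 at rank 18. All 3 lists thus placed it among their strongest candidates. The summit of replicate 1 lay 7 bp to the left of the pooled summit and that of replicate 2 lay 48 bp to the right, and the replicate peaks overlapped the pooled peak by 423 and 374 bp. The next member, nspd-2, had a pooled signal of 48.8, so the nspc-17 value was 4.23 times as high. Among the 7198 protein-coding genes with a pooled candidate in their window, 12 had a stronger one than nspc-17, and on X the peak ranked 3 of 5284 pooled candidates. These values chose the gene for description and carry no test.

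The place of the nspc-17 peak set it apart from many of the strongest peaks of the series. Of the 25 strongest pooled peaks, 15 lay within 500 bp of a gene for a tRNA, snoRNA or snRNA, whereas the nearest such gene to nspc-17, a tRNA gene, was 39606 bp from the summit. No other protein-coding promoter window held the summit. The gap between nspc-17 and nspc-18 was 1988 bp, and the 3′ end of nspc-18 lay 1281 bp from the summit. GC content was 50.5% in the summit window and 31.7% in the flanks 275 bp to each side, against a median of 48.5% over optimal summit windows and 41.6% over pooled ones. Neither the summit window nor the peak held any repeated word, defined as 32 bases found more than once in the genome on either strand. That was common, since 390 of 566 optimal peaks (68.9%) and 23581 of 30000 pooled ones (78.6%) held none. The best match to the summit window within the promoter windows of the 17 other group C genes had 55.4 to 59.4% identity, so no close copy of it was found in those windows.

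**Figure D1:**
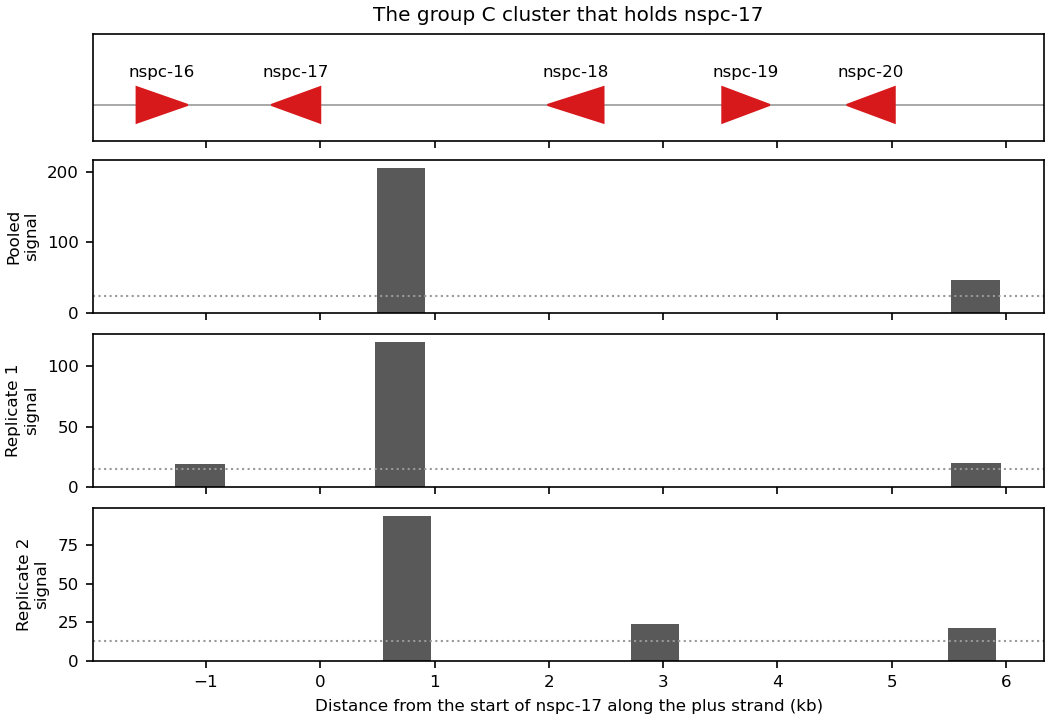
Genes and candidates of the nspc-16 to nspc-20 cluster on X, with distance from the start of nspc-17 on the horizontal axis. Triangles are genes pointing in their direction of transcription, bars are candidates drawn to their width and signal in the pooled list, replicate 1 and replicate 2, and dotted lines mark the lowest signal of each list. The nspc-17 bar reaches 206, 120.4 and 94.4 in the 3 lists, and the nspc-18 and nspc-19 interval holds a bar in replicate 2 alone.

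Some of the promoters next to nspc-17 resembled its own, and none of them carried a peak of that size. The 80 bases upstream of the annotated starts of the 5 genes of its cluster are printed to show this, each on the strand of its gene, with the word TATAAA on either strand in capitals. They lie at chrX:14523495-14523574 (plus strand), chrX:14525182-14525261 (minus), chrX:14527660-14527739 (minus), chrX:14528619-14528698 (plus) and chrX:14530208-14530287 (minus).
nspc-16: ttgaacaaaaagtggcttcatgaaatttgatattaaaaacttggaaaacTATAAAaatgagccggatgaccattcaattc
nspc-17: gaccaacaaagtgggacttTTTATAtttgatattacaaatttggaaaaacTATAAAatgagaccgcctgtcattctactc
nspc-18: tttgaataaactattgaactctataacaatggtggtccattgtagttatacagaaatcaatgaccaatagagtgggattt
nspc-19: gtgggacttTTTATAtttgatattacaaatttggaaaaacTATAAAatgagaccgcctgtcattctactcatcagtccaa
nspc-20: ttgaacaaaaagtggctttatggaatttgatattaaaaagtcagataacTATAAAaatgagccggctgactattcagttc
Over the 300 bases from 250 before to 50 after the start, the nearest relative of nspc-17 was nspc-19 with 86% identity, and that of nspc-16 was nspc-20 with 85.7%. The stretches of nspc-17 and nspc-19 hold the same run shifted along, so their identity over the 80 bases alone was 75%. That of nspc-18 was 43.75% identical to nspc-17 over the same length. The last bases printed for nspc-18, from gaccaa on, resemble the first bases printed for nspc-17. The annotated genes are 490 and 428 bp long. Identity with the stretches aligned on these bases was not computed, so the 43.75% holds only as counted from the annotated starts. The promoter window of nspc-19 held no pooled candidate, and the nspc-17 peak lay further upstream than the stretches printed here.

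The cluster around nspc-17 also held nspc-20, whose candidate was the second of the group. Its pooled signal was 47.0 at rank 4850, with the summit 705 bp upstream, 3 bp from the distance seen at nspc-17. Replicate 1 gave 19.7 at rank 17693 and replicate 2 gave 21.4 at rank 8416, so the candidate was present in both but ordinary in each. The nspc-20 summit window (chrX:14530862-14530962, minus strand) is printed to set beside that of nspc-17.
nspc-20 summit window: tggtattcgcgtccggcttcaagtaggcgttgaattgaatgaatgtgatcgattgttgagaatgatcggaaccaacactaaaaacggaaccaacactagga
Nothing is in capitals there because none of the words searched occurred in it. In replicate 2 alone, a candidate at chrX:14527902-14528321 with signal 23.8 at rank 5989 lay 453 bp upstream of nspc-18 and 587 bp upstream of nspc-19. It was the only candidate in any list that fell into the windows of 2 of the 58 genes. Neither the pooled list nor replicate 1 had a candidate there.

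Over all 58 genes, few promoter windows held a candidate compared with protein-coding genes at large. A pooled candidate was present in 9 of 58 windows (15.5%, exact 95% interval 7.35 to 27.4%), while the background over all protein-coding genes was 36%. An optimal peak was present in 1 of 58 (1.72%) against a background of 1.48%, a share near it. Candidates of both replicates were present in 5 of 58 windows (8.62%, interval 2.86 to 18.98%) against 21.8%. These backgrounds count a candidate at any annotated start of a gene, whereas each of the 58 genes had 1 start. With the 5′ end of each gene alone, the background was 32.2% for a pooled candidate and 17.9% for both replicates. The latter lies within the interval of the 58 genes. Replicate 1 had a candidate in 10 windows and replicate 2 in 14, each against 36.4% of all genes, and 19 windows had a candidate in at least 1 list against 52.8%. The remaining 39 genes had none in any list. The intervals cover counting error only, neighbouring genes share sequence and windows, and no test was made because the same values chose the genes. In the comparison families the pooled count was 1 of 31 for msp genes, which encode the major sperm proteins, and 1 of 3 for nspf genes. It was 4 of 14 for nspg genes, 52 of 156 for cuticle collagen genes (33.3%) and 46 of 102 for the neuropeptide genes of the flp and nlp families (45.1%).

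**Figure D2:**
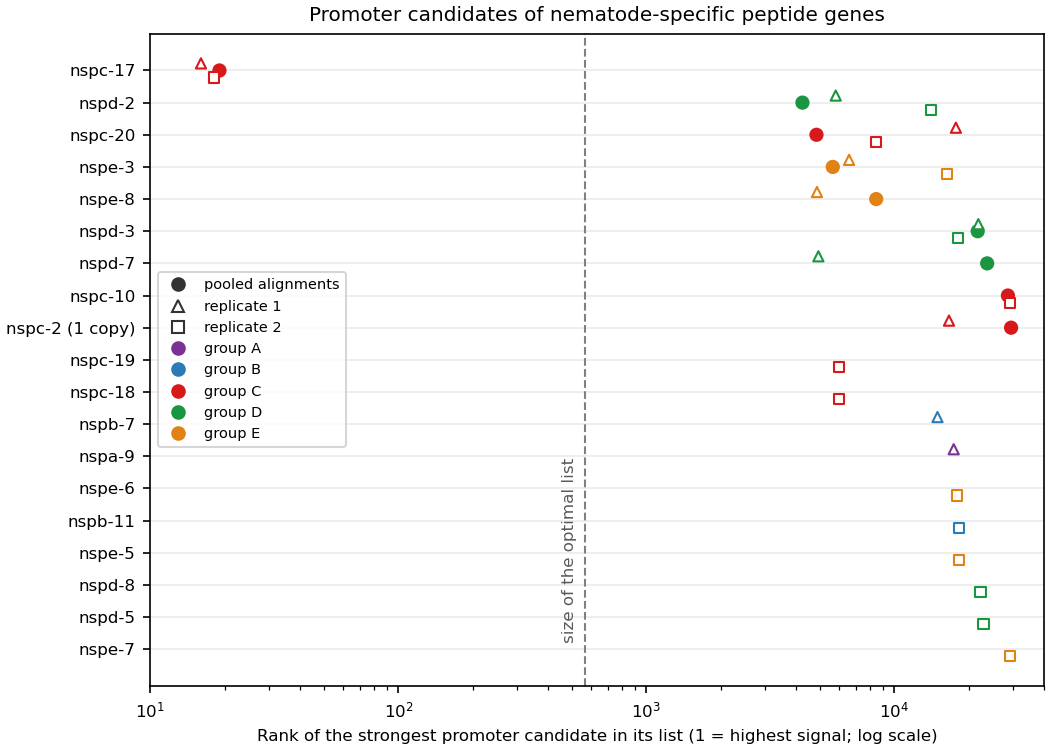
Rank of the strongest promoter candidate of each of the 19 genes with one, on a logarithmic axis where 1 is the highest signal. Filled circles are the pooled list, open triangles replicate 1 and open squares replicate 2, colours are the groups, and the nspc-2 copy shown is WBGene00044357. Only nspc-17 lies left of the dashed line at 566, the size of the optimal list, and the next pooled rank is 4258.

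By group, pooled candidates were found in C, D and E and not in A or B. The pooled counts were 4 of 18 in C, 3 of 10 in D and 2 of 8 in E. Groups A and B had 0 of 10 and 0 of 12, with exact intervals that reach 30.8 and 26.5%. These intervals count each gene as independent, although the windows of the nspa-1 copies and of the nspa-7 copies were identical. The groups are small, and whether they differ was not tested. Both replicates had a candidate in the window at 2 genes of C (nspc-17 and nspc-20), 2 of D (nspd-2 and nspd-3) and 1 of E (nspe-3). Counting instead the pooled candidates that both replicates overlapped gave 3 in C, 1 in D and 1 in E, because nspd-3 left and nspc-10 entered. At nspc-10 the summit of the replicate 1 peak was nearer to another pooled candidate outside the window. The 19 genes on X had 4 and the 39 on autosomes 5, while the pooled background by chromosome ran from 31.3% on V to 42.6% on III, with 36.7% on X. Among the 9 genes with a pooled candidate, 5 were above the median signal of the pooled list.

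The sperm-expressed group D gave the strongest candidate after nspc-17, at nspd-2 on chromosome IV. Its pooled signal was 48.8 at rank 4258, with replicate 1 at 28.8 (rank 5799) and replicate 2 at 18.05 (rank 13992). The summit lay inside the 213 bp gene, 87 bp downstream of its start, and the replicate summits lay 120 and 90 bp downstream. The 101 bp at that summit (chrIV:9844097-9844197, plus strand) are shown because the summit falls within the coding sequence, although the candidate also reaches 125 bp upstream of the start.
nspd-2 summit window: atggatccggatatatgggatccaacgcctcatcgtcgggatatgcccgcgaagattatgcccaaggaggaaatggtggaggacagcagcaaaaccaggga
GC content was 53.5% in this window and 38.1% in the flanks. The summit of nspd-7 also lay inside its gene, 29 bp downstream of the start, with a pooled signal of 26.7 at rank 23658 and 54.5% GC against 29.2% in the flanks. It was at rank 4937 in replicate 1 and missing from replicate 2, and it lay 725 bp upstream of Y43C5A.2. For nspd-3 the pooled candidate had signal 27.9 at rank 21661 and lay 831 bp upstream, inside the gene C24D10.2 and 156 bp downstream of the start of that gene. Replicate 2 put it 836 bp upstream of nspd-3, whereas the strongest candidate of replicate 1 lay 123 bp upstream, so the replicates did not mark the same place. In replicate 2 alone nspd-5 and nspd-8 had candidates, at ranks 22884 and 22220.

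Group E formed the largest cluster, 8 genes over 16.9 kb of chromosome II, and 5 of its genes had a candidate in some list. The strongest, nspe-3, had a pooled signal of 45.0 at rank 5643 with the summit 82 bp upstream of the start. Replicate 1 gave 27.9 at rank 6565 and replicate 2 gave 16.997 at rank 16340, 69 and 32 bp upstream. All 3 summits thus lay just before the gene, and the word TATAAA, in capitals, falls inside the window of the pooled summit (chrII:12617754-12617854, plus strand).
nspe-3 summit window: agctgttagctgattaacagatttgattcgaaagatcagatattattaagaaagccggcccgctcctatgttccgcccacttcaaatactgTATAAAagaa
The snoRNA gene Y38E10A.32 was 168 bp from that summit, so nspe-3 alone among the 9 genes had a short noncoding gene within 500 bp, and its part in the peak was not tested. At nspe-8 the pooled signal was 39.9 at rank 8445, with the summit 37 bp inside the gene, rank 4872 in replicate 1 and no candidate in replicate 2. In replicate 2 alone candidates stood at nspe-5, nspe-6 and nspe-7. Across the cluster and 1000 bp to each side there were 4 pooled candidates, 2.12 per 10 kb against 2.99 per 10 kb of genome. The other clusters ran from 0 to 4.16 per 10 kb, and 2 of the 9 were above the genome value, the 7 nspc genes (4.16) and the pair nspd-4 and nspd-5 (4.05).

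The 2 remaining pooled candidates of group C were near the end of the list. That of nspc-10 had a pooled signal of 23.9 at rank 28681, 908 bp upstream, and rank 29160 in replicate 2. In replicate 1 the candidate that overlapped it by 236 bp (signal 16.3, rank 26202) had its summit 1102 bp upstream, outside the window. That summit was nearer to another pooled candidate, 1107 bp upstream of nspc-10 with signal 28.4 at rank 20859. That of the nspc-2 copy WBGene00044357 had 23.5 at rank 29540, 923 bp upstream, with rank 16596 in replicate 1 and none in replicate 2. Each lay beyond a neighbouring family member transcribed the other way, 678 bp downstream of the start of nspc-9 and 557 bp downstream of that of nspc-7. Of the 9 pooled candidates, none was shared by 2 of the 58 genes, although 15 pairs of windows overlapped and 29 genes were in such a pair. Other protein-coding windows held 2 of the 9, those of nspd-3 and nspd-7.

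The edge of the window decided the weaker members. The members just inside were nspc-2 at 923 bp, nspc-10 at 908 bp and nspd-3 at 831 bp upstream. Just outside were a candidate 1057 bp upstream of nspe-1 (signal 39.9, the one counted for nspe-8) and one 1084 bp upstream of nspc-7 (35.7). On the downstream side nspb-6 had one at 208 bp (23.5). From the start of a gene to the nearest pooled summit, the median distance was 2523 bp for the 58 genes (quartiles 1072 and 4505 bp) and 1035 bp for all protein-coding genes (307 and 2767 bp). For a gene with several annotated starts the nearest one counted, which can shorten the distance, whereas each of the 58 genes had 1 start.

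Most of these genes lie in physical clusters, here runs of family genes at most 20 kb apart. There were 9 clusters with 2 to 8 genes, all of 1 group each, which took in 46 genes and left 12 outside. Clustered genes had a pooled candidate in 7 of 46 cases (15.2%) and the others in 2 of 12 (16.7%), so the shares were alike in size. Within the clusters 14 neighbouring pairs were divergent, with starts 210 to 5229 bp apart. Across the clusters, 3 held no pooled candidate at all, within them or in the 1000 bp to each side. They were the 4 nspb genes on II (9.95 kb), the 5 nspb genes on IV (8.88 kb) and the 7 nspa genes on V (12.8 kb), and the latter 2 also had no candidate of either replicate there. Other protein-coding genes within 50 kb had a pooled candidate in 6 of 22, 11 of 28 and 4 of 22 cases in that order. The 3 clusters of group C on X spanned 7.61, 18.2 and 6.63 kb and had 1, 1 and 2 genes with a pooled candidate. The third is that of nspc-17. Of their neighbours 3 of 15, 7 of 31 and 7 of 20 had one. The counts were 6 of 20 around the group E cluster, and 10 of 35 and 8 of 18 around the nspd pairs on II and IV. Neighbour shares over the 9 clusters ran from 18.2 to 44.4%, against 36% of all protein-coding genes.

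**Figure D3:**
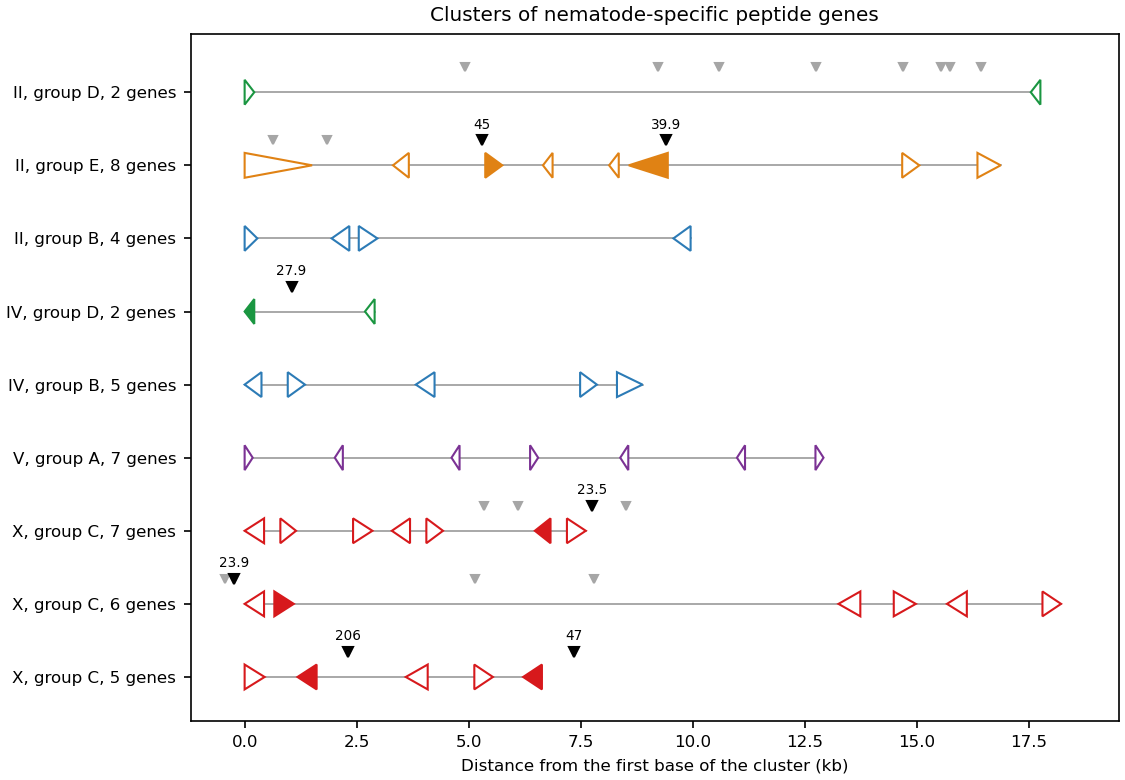
The 9 clusters, each drawn from its first base, with distance in kb on the horizontal axis. Triangles are family genes pointing in their direction of transcription (filled where the window holds a pooled candidate, short genes widened to be visible), and markers above are pooled candidates, black with their signal where they lie in a family promoter window and grey elsewhere. The rows of group B on II and IV and of group A on V have no marker, and the nspc-17 candidate at 206 stands in the last row.

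Group A showed how far copies go in this family. Each of its 10 genes was 105 bp long, and coding sequences within the group had a median identity of 96.1% over 45 pairs. On V the genes nspa-5, nspa-1 and nspa-7 recurred in the same order 6368 bp further along. The gene bodies of the copies were identical, the promoter windows of the nspa-1 and nspa-7 copies were identical too, and the windows of the nspa-5 copies were 57.7% identical. The identical run around the nspa-5 copies was 193 bp and reached 71 bp upstream of the start. The 80 bases upstream of the starts of 4 of the genes show where it ends, with TATAAA in capitals. They lie at chrV:14878268-14878347 (plus strand), chrV:14884636-14884715 (plus), chrV:14891002-14891081 (plus) and chrV:14880540-14880619 (minus).
nspa-5 (WBGene00013887): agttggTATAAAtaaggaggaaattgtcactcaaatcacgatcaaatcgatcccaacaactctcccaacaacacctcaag
nspa-5 (WBGene00044272): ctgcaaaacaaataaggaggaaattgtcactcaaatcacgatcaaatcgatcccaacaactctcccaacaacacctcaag
nspa-2: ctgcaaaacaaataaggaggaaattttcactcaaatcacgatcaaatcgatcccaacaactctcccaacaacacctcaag
nspa-1 (WBGene00013888): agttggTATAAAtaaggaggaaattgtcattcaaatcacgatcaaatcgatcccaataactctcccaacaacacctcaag
The word is present in the first nspa-5 copy and in nspa-1 and absent from the same place in the second nspa-5 copy and in nspa-2. None of the 7 genes of this cluster had a candidate in any list. The only candidate of group A was at nspa-9 on X, in replicate 1, with signal 19.9 at rank 17339. In group B the candidates were likewise in 1 replicate each, at nspb-7 in replicate 1 (21.2, rank 14915) and at nspb-11 in replicate 2 (16.3, rank 18162).

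The pair of nspc-2 genes on X gave the other case of copies, and here the copies differed in their candidates. They lie 5677 bp apart, with identical gene bodies and promoter windows 88.5% identical. WBGene00044357 had the candidate at rank 29540, with signal 23.5 against a lowest pooled signal of 23.2, and WBGene00044337 had none. In replicate 1 the candidate stood at rank 16596, and replicate 2 had none at either copy. The pooled peak of WBGene00044357 held no repeated word, while 76.4% of the words in its promoter window and 78.1% in that of the other copy were repeated.

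Repeated sequence took up more of these windows than of the windows of other genes. The median share of repeated words in the promoter window was 18.97% for the 58 genes and 0% for all protein-coding genes. More than 50% of the words were repeated at 16 of the 58 (27.6%) and at 732 of all (3.66%), and 4 windows of group A were wholly repeated. By group the medians were 90.9% in A, 12.6% in B, 20.4% in C, 20.04% in D and 1.97% in E. Short reads from such words match several places, and how the authors placed them was not given in the sources used here. Over its whole length, each of the 9 pooled candidates had 0 to 7.38% repeated words. In the summit windows alone the share was 22.9% at nspd-2, 14.3% at nspd-3 and 0% at the others. Of all 30000 pooled candidates, 290 (0.967%) had more than 50% repeated words. In the genome 8.55% of words were repeated, but that is a share of words and not of stretches. These last shares are therefore not comparable.

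The share of members with a candidate was also below the background among windows with little repeated sequence, with wide intervals. Among windows under 25% repeated, 8 of 39 members had a pooled candidate (20.5%, interval 9.30 to 36.5%) against 37.5% of 18313 protein-coding genes, and 5 of 39 had one in both replicates (12.8%, interval 4.30 to 27.4%) against 22.7%. Below 5% repeated the counts were 3 of 16 members (18.75%, interval 4.05 to 45.6%) against 37.7%, and both of these latter intervals include the background. At 50% or more they were 1 of 16 (6.25%, interval 0.158 to 30.2%) against 11.3%. These backgrounds again count a candidate at any annotated start, and shares for the 5′ end alone are not given by repeated sequence. These are counts with no test, and the part of repeated sequence in the members' counts was not tested. Group E, with the least repeated windows, had 2 of 8.

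**Figure D4:**
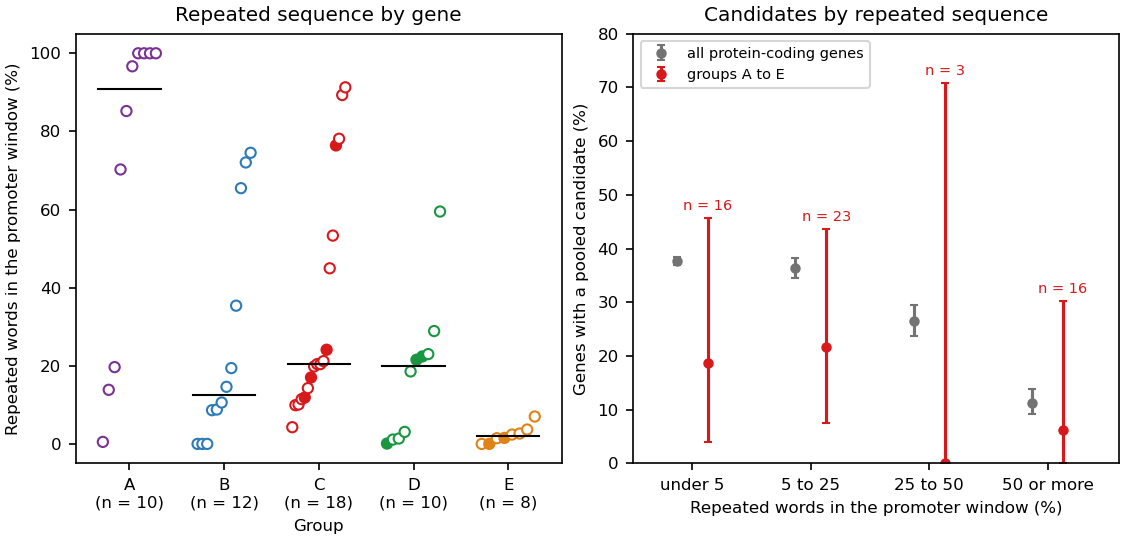
Left, the share of repeated 32-base words in the promoter window of each gene by group, filled where a pooled candidate is present, with the group median as a bar. Right, the share of genes with a pooled candidate by repeated share, for the 58 genes and for all protein-coding genes, with exact 95% intervals. The values for the 58 genes are 18.75, 21.7, 0 and 6.25% and those for all genes 37.7, 36.4, 26.5 and 11.3%.

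The word TATAAA, the core of a TATA box, was common in the promoters of groups A, B, C and E. Of the 300-base promoters, 41 of 58 held it on either strand (70.7%) against 37.9% of all protein-coding genes. It was in 17 of 18 promoters of group C, 7 of 8 of E, 9 of 12 of B and 7 of 10 of A, but in 1 of 10 of D. The homeodomain word TAATTA was in 11 of 58 (18.97%) against 15.5%. GTTCGA, found inside tRNA genes, was in 1 (1.72%) against 9.85%, and GAGAGA in 4 (6.90%) against 21.8%. Each word was sought on both strands, and none of the 4 contains another. Of the 9 pooled summit windows, 2 held TATAAA (7.29% of all pooled windows), and none held TAATTA (2.95%), GTTCGA (4.7%) or GAGAGA (8.2%). A match is a description and not a binding site. Annotated starts are the first coding base at all 10 genes of group A, all 10 of group D, and nspe-1 and nspe-2 of group E. The windows of these genes are therefore placed from the start codon.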

How the data were processed

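Peak lists in the build ce11 were read as deposited. Per the notes deposited with the files, each replicate's candidates were called on its alignment against a control alignment, the pooled candidates on both alignments, and the optimal list was derived from these. Caller, aligner and their handling of reads with several matches were not given in the sources used here. A deposited signal is the authors' own value for a peak, with no stated scale, and was compared only within a list. The deposited -log10 q reaches its maximum in 452 pooled peaks and served as an alternative rank. Lists in ce10 and signal tracks were not used here.

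Genes and starts were those of Ensembl release 115 (WBcel235, the assembly called ce11 elsewhere). Sequence was read from the RefSeq copy of that assembly. Coordinates are 1-based. A candidate counted where its summit lay in the window of any annotated start, and all 58 genes had 1 start. Shares carry exact (Clopper-Pearson) 95% intervals, and identity is 1 minus the edit distance over the longer length. The genes, lists and words were chosen with earlier results of these data known. Named were nspc-17, the 10 genes with the highest pooled signal (9 had one), the strongest of each group, members of clusters and copies, and their neighbours. Genes at the window edge and those with a candidate in 1 replicate were named after their values were seen. The window search was tested on simulated data and found 200 of 200 planted summits and 0 of 200 placed outside. Python 3.11.15 was used with numpy 2.4.6, scipy 1.17.1, numba 0.67.0, edlib 1.3.9.post1 and matplotlib 3.10.9. Other windows, matching rules, list lengths, cluster gaps and word lengths, and each replicate alone, were tried as alternatives.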

Additional observations from a re-analysis of the deposited data

How the results depend on the processing

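Of 38 alternative values, 26 were labelled close to those reported. This label took in changes from 9 to 6 genes and from 5 to 7 genes, but not a rank of 16 instead of 19. Giving each summit to the nearest protein-coding start only left 6 genes with a pooled candidate (10.3% against 30.7% of all genes). With a window of 500 bp upstream to 100 bp downstream, 4 genes had a pooled candidate (6.90% against 23.0% of all genes). In that window 1 gene had one in both replicates (1.72% against 11.6%) and 0 had an optimal peak (against 0.946%). The nspc-17 summit falls outside it, so nspc-17 has no rank there. With 2000 bp upstream to 500 bp downstream, 21 had a pooled candidate (36.2% against 53.7%) and 13 one in both replicates (22.4% against 39.6%). In that window 4 genes shared their strongest pooled candidate. Counting any overlap of 1 bp with the window gave 14 genes with a pooled candidate (24.1% against 43.3%) and 2 that shared one. The 10000 strongest candidates left 5 genes (8.62% against 15.7%). With the list of 1 replicate in place of the pooled list, the count ran from 10 to 14, the latter without replicate 1 (24.1% against 36.4%). In each of these settings the share with a pooled candidate was below that of all genes. Requiring that replicate peaks overlap the pooled candidate left the count in both replicates at 5 (8.62%), with nspc-10 in place of nspd-3. The share of all genes was then 18.8% with an overlap of 1 bp and 15.7% with 50% of both peaks. Both shares lie within the interval of 2.86 to 18.98% for the 58 genes, which covers counting error only and is not a test. The rank of nspc-17 was 16 without replicate 2, 18 without replicate 1, and 1, tied with the others at the maximum, by -log10 q. Counting identical windows once (9 genes) or leaving out windows at 25% repeated words or more (8 genes) was chosen after seeing the data. No paired analysis was possible because the series has 1 group. Unknown depth means that a window without a candidate does not show that nothing was bound.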

Other observations

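Optimal peaks lay within 10 kb of other family genes without falling into their windows. One with signal 144 at pooled rank 81 lay 2113 bp beyond the 3′ end of nspc-15, in no annotated protein-coding gene and 4370 bp from the nearest tRNA gene. Another with signal 105 at rank 291 lay between nspc-10 and nspc-12 on a tRNA gene and in the promoter window of F42F12.14. The gene nspd-1 had 2 of them, at 3020 and 7991 bp. The first lay 1748 bp from the snoRNA gene ZK484.11 and the second 28 bp from the snoRNA gene T27A3.9. On V, a pooled candidate 1659 bp upstream of nspa-8 had signal 83.8 at rank 623, just below the lowest optimal signal of 86.5. The choice of these peaks followed a look at their values.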
